A study of Mus musculus with 10 samples.

Results

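The sorting nexins and the vacuolar protein sorting (Vps) proteins move membrane cargo between endosomes, the Golgi, the lysosome and the cell surface. Their genes were taken from the count table by symbol: every row whose Ensembl identifier maps to a mouse symbol made of Snx or Vps and a number, with at most 1 further letter for Vps. This gave 64 of 14276 genes, 30 sorting nexins and 34 Vps genes. The rule sets Snx31 against the others, and it was written with the difference in Snx31 already known.

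RNA of cerebral cortex from C57BL/6 mice aged 3 months was sequenced after depletion of ribosomal RNA in 10 libraries. The 5 control libraries held 3 of genotype Brap flox/wt Cre- and 2 of flox/flox Cre-, and the 5 BrapcKO (conditional Brap knockout) libraries held 3 of flox/ko Cre+ and 2 of flox/flox Cre+. Brap encodes a ubiquitin ligase that binds BRCA1 and restrains Ras signalling. Every library carried at least 1 flox allele. Neither the Cre driver nor the deleted part of Brap is given in the sources used here, and all BrapcKO libraries and no control library were Cre+, so Cre itself and the knockout cannot be told apart. The labels do not say that each library is a separate mouse, and p-values can therefore speak only of variation among the sequenced libraries, some of it perhaps technical. Titles carry a code of unstated meaning: 2 control (08 and 09) and 4 BrapcKO libraries (04 to 07) are B1, and 3 control (22, 23 and 24) and 1 BrapcKO library (21) are B2.

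Total counts ran from 17188901 to 20955211 in B1 and from 26356508 to 28991874 in B2 libraries. Reads of Y-linked genes were present in 1 control library (23) and 4 BrapcKO libraries (05, 06, 07 and 21), so sex was uneven between the groups. Brap stood at 76.7 to 98.6 CPM (counts scaled to library size, here with TMM) in control and at 89.0 to 110 CPM in the libraries labelled BrapcKO. Brap was called higher in flox/ko Cre+ than in flox/wt Cre- libraries (log2 difference 0.39, edgeR adjusted p 0.0402). Between flox/flox Cre+ and Cre- libraries it differed by -0.04 (adjusted p 0.921). The Brap level thus does not show the deletion, and all directions below rest on the labels. Slc17a7 and Camk2a, markers of cortical excitatory neurons, were present in all libraries, at 807 to 1302 CPM and 849 to 1915 CPM. Camk2a and Neurod6, another marker of these neurons, fell in BrapcKO (log2 differences of -0.56 and -0.62, edgeR adjusted p 0.0179 and 0.0207), while Slc17a7 and Nrgn were not called (0.31 and -0.22, adjusted p 0.189 and 0.346).

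A sorting nexin binds phosphoinositides of endosomal membranes through its PX domain. Some members add a BAR domain that bends membrane into tubules, and others a FERM domain that binds cargo tails. Retromer (Vps26, Vps29 and Vps35) and the related retriever return cargo from endosomes, HOPS, CORVET, GARP and EARP tether membranes before fusion, ESCRT subunits sort ubiquitinated cargo into the endosome's interior, and VPS13 proteins carry lipids between organelles. In neurons this traffic supplies receptors to synapses, and mutations of VPS35 and VPS13A are known causes of human movement disorders.

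Of the 64 genes, Snx31 and Snx1 rose and Vps13a and Vps8 fell in the BrapcKO libraries. These 4 called genes are 6.25% of the members, against 8.07% of all genes tested (edgeR quasi-likelihood test with the title code as a term, adjusted p under 0.05). Counting the same way, 2 members (Snx31 and Snx1, 3.12%) were called with group as the only term, against 4.32% of all genes. Snx31 and Vps13a (3.12%) were called with a Y-linked score beside the title code, against 2.24% of all genes, and again in B1 libraries only, against 2.91%. The count was 0 with the Y-linked score in place of the title code (4 at an unadjusted p under 0.05, 0.658% of all genes). DESeq2 called 6 (9.38%, adding Vps39 and Vps13c, against 11.8% of all genes), and limma-voom the 4 named above (against 8.2%). In the fit with the title code, the share of higher genes was 3.12% of members against 3.12% of all genes, and that of lower genes 3.12% against 4.95%. Snx31 was singled out with its difference known, and it entered the table only by being high in BrapcKO libraries. Counts that hold Snx31 were thus partly set in advance. Without Snx31, 3 of 63 members were called in the fit with the title code (4.76%), 1 higher and 2 lower. The median log2 difference was 0.04 over the members and 0.01 over all genes. The differences of 57 members (89.1%) lay within 0.25 of 0 on the log2 scale, against 70% of all genes. For 55 members the 95% interval of the difference lay wholly within 0.5 of 0. Across the members without Snx31 the differences ran from -0.61 to 0.44.

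**Figure D1:**
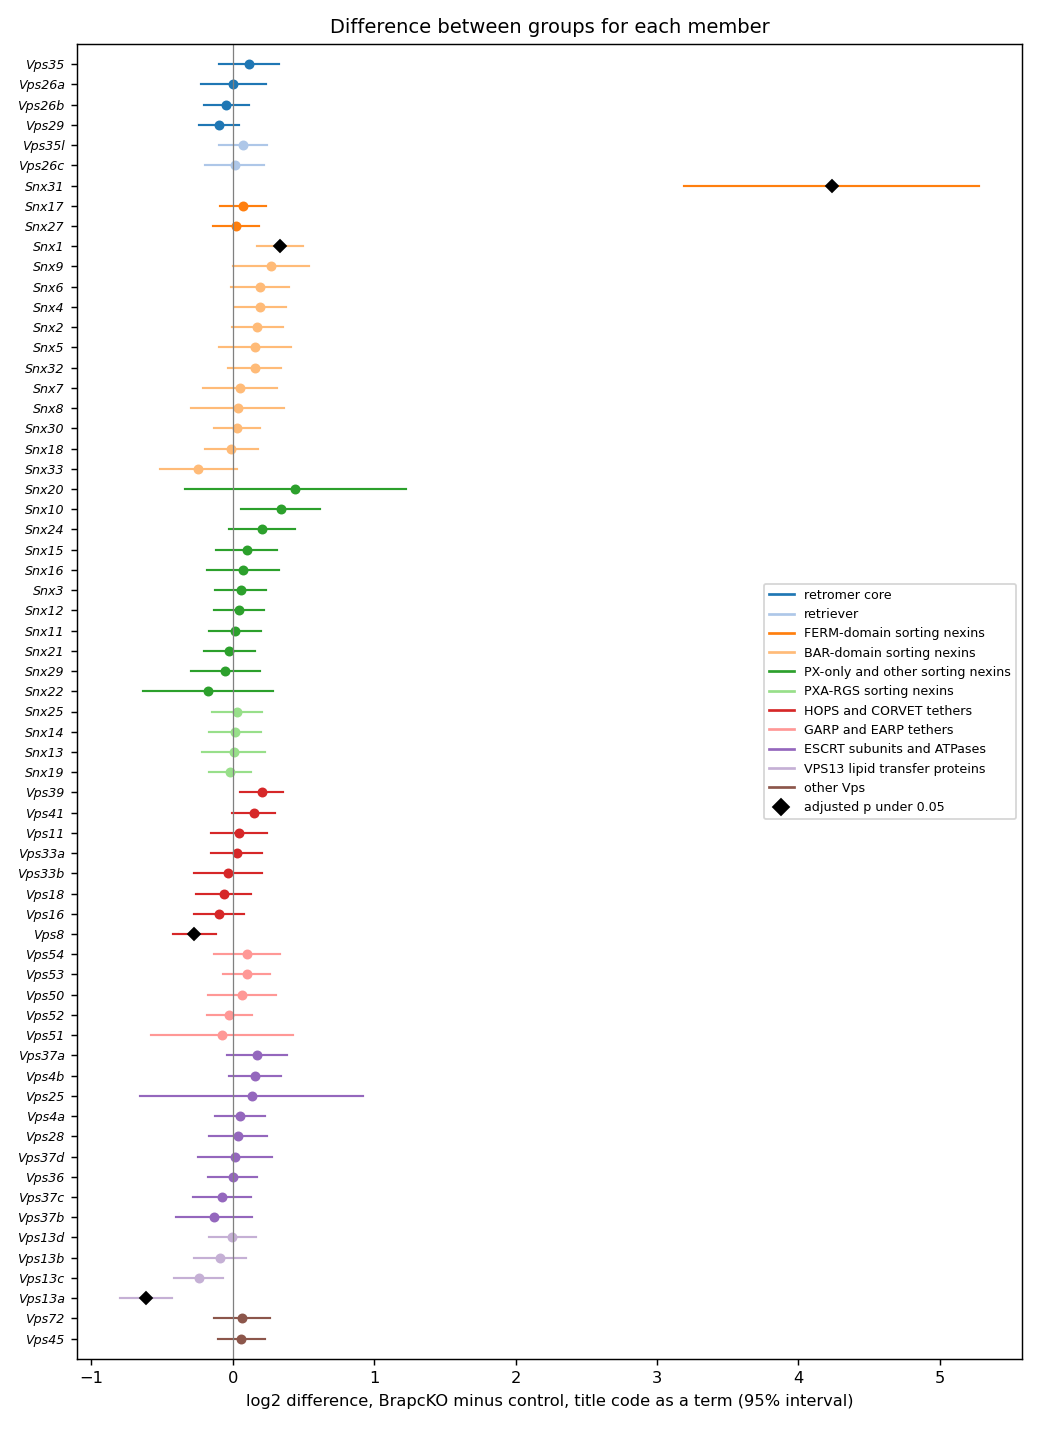
Log2 difference, BrapcKO minus control, for each of the 64 genes, with its 95% interval from the edgeR fit that has the title code as a term; colours mark the role of the gene and black diamonds an adjusted p under 0.05. Snx31 stands at 4.23, and every other gene lies between -0.61 and 0.44.

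Snx31 (ENSMUSG00000013611.14, GRCm38 chr15:36504062-36555573, minus strand) encodes a FERM-domain sorting nexin known from the epithelium of the bladder, where it binds uroplakin and integrin cargo. It stood at 0.102, 0.257, 0.104, 0.105 and 0.154 CPM in control 08, 09, 22, 23 and 24. In BrapcKO 04, 05, 06, 07 and 21 it stood at 0.830, 0.842, 1.70, 1.22 and 4.96 CPM. All 5 BrapcKO libraries lay above all 5 controls, and BrapcKO 21 was far above the other four. Control averaged 0.144 ± 0.0668 CPM and BrapcKO 1.91 ± 1.74 CPM (SD, n = 5 each). The fitted log2 difference was 4.23 (SE 0.48, 95% interval 3.19 to 5.28, edgeR adjusted p 0.000356).

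These Snx31 values rest on few reads: 2 to 5 counts in each control library and 15 to 140 in each BrapcKO library. Summed over each group there were 17 and 232 counts, a ratio of 15.9 per read sequenced (95% exact interval 9.74 to 27.8, for counting error only). BrapcKO 21 gave 140 of the 232 counts, and without it the ratio was 8.64 (5.11 to 15.5). The table holds only genes that reach 0.582 CPM in at least 5 libraries. Snx31 was the 1 member that reached this level in no control library, so it could enter the table only by being high in every BrapcKO library, and its lack of overlap was fixed by that filter. The other 63 members reached the level in libraries of both groups. Groups did not overlap for 3 members (Snx31, Snx1 and Vps39, all higher), 4.69% against 6.82% of all genes (3.12% higher and 3.71% lower).

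Both of its FERM-domain relatives were abundant, and neither was called. Snx17, which recycles integrins and lipoprotein receptors, stood at 47.8, 48.5, 53.3, 51.7 and 58.2 CPM in the controls and at 51.1, 50.2, 51.7, 55.5 and 54.4 CPM in the BrapcKO libraries, in the same order. Its log2 difference was 0.07 (SE 0.08, 95% interval -0.09 to 0.23, edgeR adjusted p 0.632). Snx27, which joins a PDZ domain to retromer and returns glutamate receptors to the synaptic surface, stood at 183, 176, 166, 164 and 152 CPM in control and at 202, 172, 173, 168 and 169 CPM in BrapcKO. Its difference was 0.02 (SE 0.08, 95% interval -0.14 to 0.19, adjusted p 0.899). The groups overlapped for both genes.

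**Figure D2:**
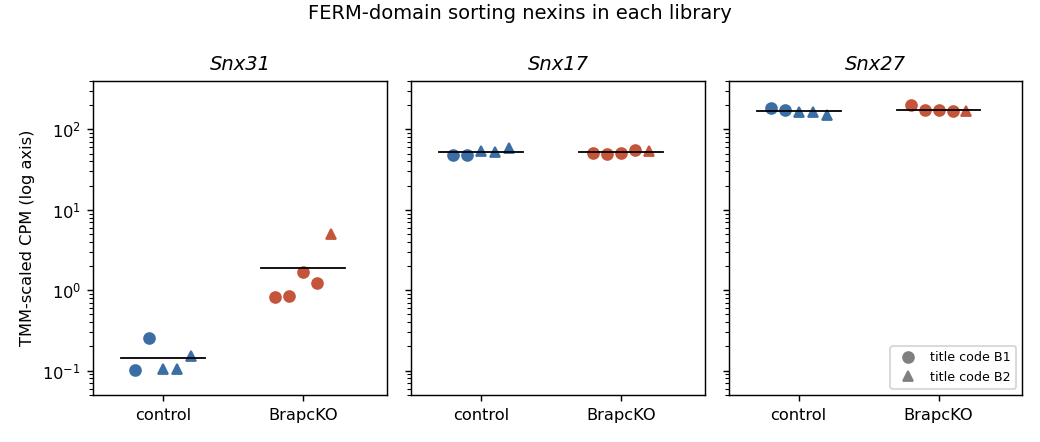
TMM-scaled CPM of Snx31, Snx17 and Snx27 on a log axis in each library; circles are title code B1, triangles B2, and lines are group means (n = 5). Snx31 runs from 0.102 to 0.257 CPM in control and from 0.830 to 4.96 CPM in BrapcKO, while Snx17 and Snx27 overlap between the groups.

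The log2 ratio of Snx31 to Snx17 in each library does not depend on library scaling. It averaged -8.59 ± 0.60 in control and -5.15 ± 1.03 in BrapcKO (SD, n = 5 each), a difference of 3.44. Weighted within title codes the difference was 3.63, and against Snx27 it was 3.39. No p is given for these ratios, because the filter had already set the libraries apart. For the same reason, and because Snx31 was singled out with its difference known, the adjusted p-values of Snx31 describe the contrast and are not independent evidence of it.

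The title code and the Y-linked reads were unevenly spread, so Snx31 was also read within them. Among B1 libraries the controls stood at 0.102 and 0.257 CPM and the 4 BrapcKO libraries at 0.830 to 1.70 CPM, a difference in mean log2 CPM of 2.76. Among B2 libraries the 3 controls stood at 0.104 to 0.154 CPM and BrapcKO 21 at 4.96 CPM, a difference of 5.38 with 1 library on one side. Control 23, with Y-linked reads, stood at 0.105 CPM, and BrapcKO 04, without them, at 0.830 CPM. The filter described above had already fixed this order and the separation within each title code, so neither is a check on sex or code. With a Y-linked score added to the title code the difference was 4.00 (adjusted p 0.0138). Without BrapcKO 21 it was 2.65 (adjusted p 0.0256). With the Y-linked score as the only added term it was 3.21 and was not called (adjusted p 0.116).

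By genotype, Snx31 differed by 4.82 (SE 0.63, edgeR adjusted p 0.00303) when flox/ko Cre+ was set against flox/wt Cre-. Among flox/flox libraries, Cre+ differed from Cre- by 3.57 (SE 0.79, adjusted p 0.0698). Without BrapcKO 21 the first of these was 2.97 (adjusted p 0.0707), and without control 09 the second was 5.03 (adjusted p 0.042). In both pairs the filter had already set Cre+ above Cre- libraries, so these p-values describe the contrasts and are not independent evidence. The 2 differences were not shown to differ from each other (1.25, 95% interval -1.10 to 3.61, adjusted p 0.913). In the first pair Snx31, Snx1 and Vps13a were called, 4.69% of members against 4.84% of all genes. In the second pair edgeR called 0 members (3 at an unadjusted p under 0.05), against 0.736% of all genes.

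Marker genes of other cells and regions moved between the same libraries. Of 6 striatal markers 4 rose and 0 fell (summed level 239 to 594 CPM in control and 476 to 1097 CPM in BrapcKO). Of 6 inhibitory neuron markers 4 rose (Gad1, Gad2, Slc32a1 and Sst) and 0 fell (801 to 918 and 1018 to 1671 CPM). The inhibitory markers Vip and Pvalb differed by -0.45 and -0.27 (edgeR adjusted p 0.137 and 0.432). With group as the only term Slc32a1 and Sst differed by 0.03 and 0.31 and were not called. Nor were the striatal Ppp1r1b and Drd1 (0.72 and 0.58), while Gad1, Gad2 and the striatal Rgs9 and Penk were. BrapcKO 21, the library highest in Snx31, was also the highest in the striatal and the inhibitory sum. It is the 1 BrapcKO library of title code B2. Among BrapcKO libraries it was the lowest in the astrocyte, endothelial and hippocampal sums (1318, 103 and 372 CPM). Of 9 activity-induced genes 8 fell (summed over the 9, 849 to 1512 and 350 to 463 CPM). The remaining gene, Bdnf, went the other way and was not called (0.56, edgeR adjusted p 0.243). Of 5 upper-layer markers 3 fell (Rasgrf2, Lamp5 and Rorb) and 0 rose. The sums of the 5 did not overlap, by a narrow margin (708 to 938 and 621 to 706 CPM). The upper-layer markers Cux2 and Calb1 differed by 0.26 and 0.05 (edgeR adjusted p 0.125 and 0.883). Of 5 oligodendrocyte markers 0 were called by edgeR (2 at an unadjusted p under 0.05, 1 by DESeq2 and 0 by limma-voom), while their sums were apart and lower (3051 to 4265 and 2226 to 3012 CPM). Among the deep-layer and hippocampal markers edgeR called only Bcl11b and Wfs1, which rose (0.32 and 0.90). The medians of these lists were -0.15 and -0.14. Fezf2, Tle4 and Lct differed by -0.49, -0.26 and -0.98 (edgeR adjusted p 0.0795, 0.056 and 0.06). DESeq2 called all of these as well, and limma-voom called Lct. For endothelium and choroid plexus edgeR called no marker, nor did DESeq2 or limma-voom, with 0 at an unadjusted p under 0.05. Of 6 astrocyte markers 2 rose, Gfap and Vim, and of 6 microglia markers 1 rose, C1qa. Summed levels were 1146 to 1197 and 1318 to 2775 CPM for astrocytes, and 231 to 298 and 359 to 970 CPM for microglia. Gfap alone stood at 125 to 154 CPM in control and at 329 to 1228 CPM in BrapcKO. The astrocyte markers Aqp4, Aldh1l1, Gja1 and Slc1a3 were not called (0.41, 0.09, 0.02 and -0.04). None of these markers was at 0, and their part in the Snx31 difference was not tested. In bulk tissue, fewer cells of a type and less RNA per cell cannot be told apart.

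Snx1 (ENSMUSG00000032382.14, chr9:66088133-66126587, minus strand) is one of the BAR-domain sorting nexins that shape retromer tubules. It stood at 62.0, 69.4, 68.1, 64.3 and 61.9 CPM in control 08, 09, 22, 23 and 24 and at 86.1, 75.4, 80.7, 80.7 and 85.0 CPM in BrapcKO 04, 05, 06, 07 and 21. The groups did not overlap, also within each title code. Control averaged 65.1 ± 3.44 CPM and BrapcKO 81.6 ± 4.26 CPM (SD, n = 5 each), which the fit put at 0.33 on the log2 scale (SE 0.08, edgeR adjusted p 0.0175). The call was lost with the Y-linked score added (0.38, adjusted p 0.0814), and without control 08 or BrapcKO 21 (adjusted p 0.0933 and 0.15).

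Of the 12 BAR-domain genes Snx1 was the 1 called, and 10 had a difference above 0 (median 0.16). Its partners Snx2, Snx5 and Snx6 differed by 0.17, 0.16 and 0.20 (adjusted p 0.244, 0.484 and 0.248). Snx9, which acts in endocytosis with dynamin, and Snx4, a recycling nexin, differed by 0.27 and 0.19 (adjusted p 0.218 and 0.185). The lowest of this group was Snx33, at -0.24 (adjusted p 0.284).

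Vps13a (ENSMUSG00000046230.10, chr19:16615366-16780933, minus strand) encodes chorein, a lipid transfer protein whose loss causes chorea-acanthocytosis in humans. It stood at 315, 303, 239, 234 and 194 CPM in the controls and at 208, 203, 201, 175 and 154 CPM in the BrapcKO libraries, in the order above. Both groups were lower in B2 than in B1. Over all libraries the groups overlapped, through control 24 alone, but within each title code every BrapcKO library lay below every control. Control averaged 257 ± 50.9 CPM and BrapcKO 188 ± 23.1 CPM (SD, n = 5 each). The log2 difference was -0.61 (SE 0.08, 95% interval -0.79 to -0.43, edgeR adjusted p 0.00134), and it was called without any 1 library and with the Y-linked score added to the title code (-0.61, adjusted p 0.0229). Without the title code it was -0.45 and was not called (adjusted p 0.0932).

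The 3 other VPS13 genes were not called by edgeR. Vps13c, Vps13b and Vps13d differed by -0.24, -0.09 and -0.0014 (adjusted p 0.093, 0.598 and 0.995). DESeq2 called Vps13c too.

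Vps8 (ENSMUSG00000033653.18, chr16:21423118-21644680, plus strand) encodes a subunit found in CORVET and not in HOPS. It stood at 86.0, 90.7, 75.0, 78.9 and 75.8 CPM in the controls and at 69.9, 75.4, 75.8, 68.2 and 64.6 CPM in the BrapcKO libraries. The groups overlapped over all libraries and were apart within each title code. The difference was -0.27 (SE 0.07, adjusted p 0.0325). This call was the least stable of the 4: it was lost without the title code (-0.20, adjusted p 0.217), with the Y-linked score added (adjusted p 0.122), and on leaving out any 1 of control 08, 09, 22 or 23 or BrapcKO 04, 07 or 21 (0.0577 to 0.151).

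Of the 8 genes listed with the HOPS and CORVET tethers, a list that also holds Vps33b, Vps8 was the 1 that edgeR called. Vps39, the HOPS counterpart of the CORVET subunit Tgfbrap1, stood at 87.8, 87.4, 80.7, 83.9 and 90.03 CPM in control and at 96.3, 93.1, 103, 102 and 102 CPM in BrapcKO, with no overlap. Its log2 difference was 0.20 (SE 0.07), with an edgeR adjusted p of 0.104 and a DESeq2 adjusted p of 0.0281. The shared core subunits Vps11, Vps16, Vps18 and Vps33a differed by 0.05, -0.10, -0.06 and 0.03.

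**Figure D3:**
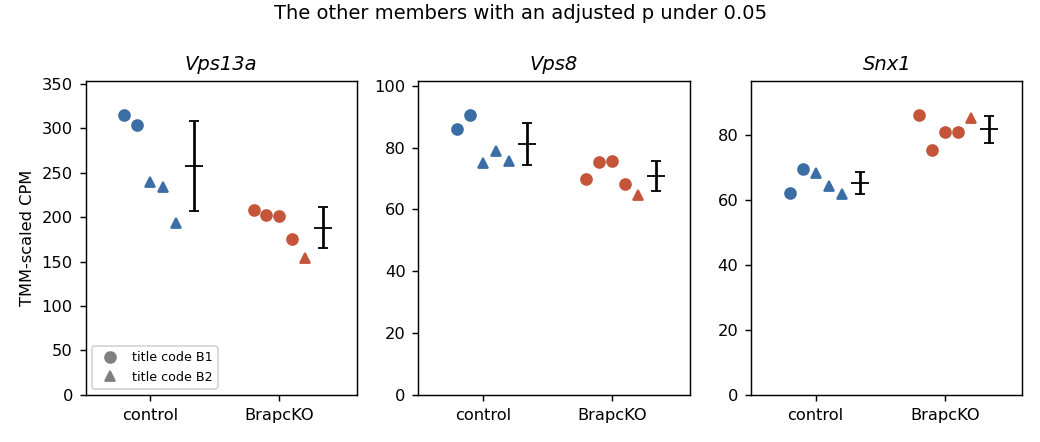
TMM-scaled CPM of Vps13a, Vps8 and Snx1 in each library; circles are title code B1, triangles B2, and the black bars are means ± SD (n = 5). Vps13a and Vps8 are lower in BrapcKO within each title code, and Snx1 is higher in all 5 BrapcKO libraries, at 75.4 to 86.1 against 61.9 to 69.4 CPM.

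The promoters of Snx1, Vps13a and Vps8 are printed to show how the upstream sequences of these 3 called genes differ. They are the 250 bases before the RefSeq start (GRCm38.p6), 5′ to 3′ on the gene's strand, with capitals marking 2 motifs on either strand, the GC box (letters GGGCGG) and the box named for its letters CCAAT. The coordinates are chr9:66124887-66125136 (minus) for Snx1, chr19:16780934-16781183 (minus) for Vps13a and chr16:21422868-21423117 (plus) for Vps8. The Snx1 stretch lies inside the gene span given above, which starts further upstream, at 66126587. Those of Vps13a and Vps8 end at the start of the gene span.
Snx1: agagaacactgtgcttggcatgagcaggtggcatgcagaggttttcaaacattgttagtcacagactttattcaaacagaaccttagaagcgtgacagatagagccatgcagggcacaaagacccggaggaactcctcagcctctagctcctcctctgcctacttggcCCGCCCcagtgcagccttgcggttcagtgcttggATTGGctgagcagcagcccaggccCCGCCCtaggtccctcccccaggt
Vps13a: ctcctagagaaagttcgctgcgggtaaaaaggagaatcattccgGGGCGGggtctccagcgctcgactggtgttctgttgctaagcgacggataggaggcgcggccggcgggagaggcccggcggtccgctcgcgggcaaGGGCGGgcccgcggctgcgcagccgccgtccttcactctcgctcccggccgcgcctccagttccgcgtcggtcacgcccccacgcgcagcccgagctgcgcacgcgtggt
Vps8: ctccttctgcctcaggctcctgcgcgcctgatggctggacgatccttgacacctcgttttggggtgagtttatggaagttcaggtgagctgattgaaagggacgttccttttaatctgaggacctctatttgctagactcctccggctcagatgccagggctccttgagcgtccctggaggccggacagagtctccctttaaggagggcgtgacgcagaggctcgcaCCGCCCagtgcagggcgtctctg
All 3 hold a GC box and Snx1 a CCAAT box as well, and GC content was 56.4% for Snx1, 71.2% for Vps13a and 58.4% for Vps8. Of the 64 members 43 had a promoter entry, of which 30 held GGGCGG (69.8%, against 62.8% of 11159 genes of the table) and 14 held CCAAT (32.6% against 40.1%). CACGTG, the core of the element bound by the lysosomal regulator TFEB, was in 6 member promoters (14% against 9.57%) and in none of the printed ones. TGACGTCA, the cyclic AMP response element, was in 0 of the 43 (2.99% of all). No motif lies within another, both strands were searched, and a match is a description of the letters only.

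No gene of the retromer core was called. Vps35, its scaffold, stood at 176 to 229 CPM in control and at 189 to 253 CPM in BrapcKO and differed by 0.12 (95% interval -0.09 to 0.33, adjusted p 0.535). Vps26a, Vps26b and Vps29 differed by 0.0059, -0.04 and -0.10 (adjusted p 0.983, 0.782 and 0.435). The edgeR test called 0 of these 4 genes, and 0 had an unadjusted p under 0.05; DESeq2 and limma-voom also called 0. The retriever subunits Vps26c and Vps35l differed by 0.01 and 0.07.

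Among the other sorting nexins, the 11 PX-only and remaining genes ran from -0.17 (Snx22) to 0.44 (Snx20, adjusted p 0.521, a gene of blood cells with a mean of 1.18 CPM). Snx10, which acts with the vacuolar proton pump, differed by 0.34 (adjusted p 0.138). The 4 PXA-RGS genes, Snx13, Snx14, Snx19 and Snx25, lay between -0.02 and 0.03. The edgeR test called 0 of these 15; of them Snx10 alone had an unadjusted p under 0.05, and DESeq2 and limma-voom called 0.

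The 5 GARP and EARP genes ran from -0.08 (Vps51) to 0.10 (Vps54), and the 9 ESCRT genes from -0.13 (Vps37b) to 0.17 (Vps37a). The edgeR test, DESeq2 and limma-voom called 0 in either group, and 0 had an unadjusted p under 0.05. Vps45, which acts with SNARE proteins, and Vps72, which despite its name is a subunit of chromatin remodelling complexes, differed by 0.06 and 0.07. Vps25 and Vps51 stood near 0.645 and 1.77 CPM, where intervals are wide.

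Levels were compared between genes per kilobase of summed exon length (RPKM). In control, Snx3 was the highest at 56.2 ± 6.45 RPKM, then Vps4a at 38.8 ± 2.87 and Vps41 at 30.0 ± 1.80 RPKM (SD, n = 5). The ranges of Snx3 and Vps4a did not overlap those of the next gene. Below them neighbours overlapped down to Snx21 at 6.53 ± 0.255 RPKM, with Vps26b, Vps26a and Vps35 next to each other at 24.3, 23.7 and 23.4 RPKM. The lowest were Vps51 at 0.391, Vps25 at 0.381, Snx20 at 0.144 and Snx31 at 0.0492 RPKM. Snx31 was thus the lowest of the 64 in control, and Snx27 and Snx17 stood at 24.4 and 16.8 RPKM. Exons of Vps25 overlap those of Ramp2, and exons of Vps51 those of Tm7sf2 and Gm28374, on the same strand. The part of this overlap in the low values of Vps25 and Vps51 was not tested.

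More members were called between title codes than between groups. With group as a term 14 of the 64 differed between B2 and B1 (8 higher and 6 lower), 21.9% against 25.1% of all genes (13.4% higher and 11.8% lower). Vps37b and Vps37a, alternative subunits of ESCRT-I, went opposite ways. Vps37b stood at 9.11 to 11.6 CPM in the 6 B1 and at 23.7 to 32.9 CPM in the 4 B2 libraries (log2 difference 1.41, SE 0.12). Vps37a stood at 130 to 145 CPM in B1 and at 59.8 to 94.3 CPM in B2 (-0.72, SE 0.10). Neither overlapped between codes.

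All 4 VPS13 genes were lower in B2 (log2 differences of -0.43 for Vps13a, -0.49 for Vps13b, -0.49 for Vps13c and -0.23 for Vps13d). Snx29 was lower too (-0.36), and Snx16, Snx4, Snx2, Snx3, Vps52 and Vps29 were higher (0.43, 0.40, 0.39, 0.28, 0.24 and 0.21). Snx31 was also called (1.48), through BrapcKO 21, since its B2 controls were no higher than its B1 controls. Longer genes tended to be lower in B2: Spearman's rho between exon length and this difference was -0.52 over the 64 members and -0.40 over 14271 genes, a description across genes that share the same libraries.

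**Figure D4:**
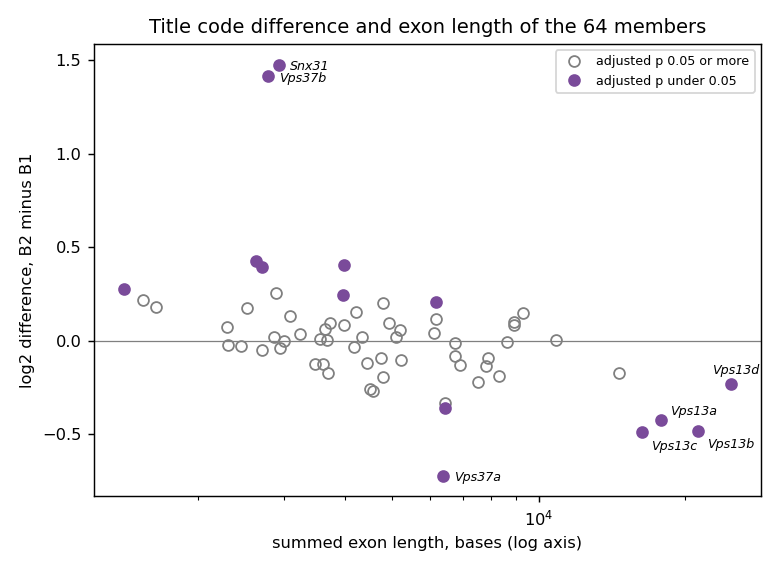
Log2 difference between title codes, B2 minus B1, against summed exon length (log axis) for the 64 genes; filled points have an adjusted p under 0.05. Vps37b and Snx31 lie highest, at 1.41 and 1.48, Vps37a lowest at -0.72, and the 4 long VPS13 genes lie below 0.

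Of 106 further genes of endosomal sorting, listed by function, 101 were in the table, and 1 rose and 1 fell (1.98%, against 8.07% of all genes). Both are receptors of the sortilin family, which retromer and its partners carry. Sort1, sortilin, stood at 825, 878, 684, 765 and 805 CPM in the controls and at 651, 624, 578, 619 and 519 CPM in the BrapcKO libraries, with no overlap (log2 difference -0.49, SE 0.07, adjusted p 0.00222). Sorcs1 stood at 75.0, 81.8, 67.8, 68.9 and 52.1 CPM in control and at 103, 91.9, 115, 106 and 107 CPM in BrapcKO, again apart (0.54, SE 0.11, adjusted p 0.00972). Sort1 was also called with the Y-linked score added (adjusted p 0.0398), and Sorcs1 was not (0.135), nor without BrapcKO 21 (0.14).

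The related Sorcs3 and Sorl1 differed by 0.70 and -0.08 (edgeR adjusted p 0.0867 and 0.744). Among the sorting receptors and cargo DESeq2 called Sort1, Sorcs1, Sorcs3 and Wls, and limma-voom called Sort1 and Sorcs1. The WASH complex (8 genes, median 0.16), the Commander complex (11, 0.15) and other ESCRT genes (21, 0.11) held no gene called by edgeR. Nor did genes listed with class III PI3 kinase and PIKfyve (12, 0.03), endosomal Rabs and effectors (24, 0.05) and endosomal SNAREs (10, 0.08). In these 6 lists 12 genes had an unadjusted p under 0.05, DESeq2 called Capzb and limma-voom called 0. The median over the 101 was 0.09, against 0.01 over all genes.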

How the data were processed

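The authors deposited a table of raw, whole-number counts of reads per gene, as its values show. The submitters' processing notes name featureCounts, Subread, FastQC, edgeR and DESeq2, and mm10 and GRCm38 as builds, with no version. No strand setting is given, so reads of overlapping genes cannot be told apart (exons of 24 of the 64 members overlap another gene's, those of Snx31, Snx1 and Vps8 do not). Symbols and positions came from GENCODE M21 (GRCm38), with 5 identifiers unmatched. Counts were tested with edgeR 4.0.16 in R 4.3.3 (robust quasi-likelihood, TMM, title code and group as terms, Benjamini-Hochberg over all 14276 genes; the default filter removed 0), and SE is the log2 difference over the square root of F. Alternatives were DESeq2 1.42.0, limma-voom 3.58.1, other terms, scalings and filters, and leaving out each library. No 2 replicates were copies (chi-square per degree of freedom 7.16 to 96.4). The code was tested on simulated data. Named were Snx31, Snx17 and Snx27, called genes, the retromer core and the extremes of each role group; others were named after their values were seen. Members and lists were chosen with earlier results of these data known. The summed excitatory neuron marker list is not reported here.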

Additional observations from a re-analysis of the deposited data

Results flagged for a closer look

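In 6 of 48 groups of 5 libraries, over 24 named genes, 1 library lay far from the others by Dixon's test at the 95% level; chance flags about 1 in 20. BrapcKO 21 was the highest in Snx31 (4.96 CPM, next 1.70) and in Vps37b (23.7 CPM, next 11.6) and the lowest in Vps37a (94.3 CPM, next 132); it is the 1 BrapcKO library of title code B2. BrapcKO 04 was the highest in Snx27 (202 CPM, next 173) and BrapcKO 06 in Snx19 (104 CPM, next 97.4). BrapcKO 05 was the highest in Snx20 (2.75 CPM, next 1.19), a gene of blood cells, and also the highest in the summed microglia markers, at 970 CPM against 359 to 419 CPM in the other BrapcKO libraries; their part in the Snx20 value was not tested.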

How the results depend on the processing

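The count of called members, 4 with the title code as a term, was 2 with group as the only term, 2 with a Y-linked score beside the title code, 2 in B1 libraries only and 0 with the Y-linked score as the only term beside group (4 at an unadjusted p under 0.05). This last setting was chosen after seeing the data. Leaving out 1 library gave 2 to 5 (2.84% to 10.2% of all genes), with 2 without control 08 or BrapcKO 21. Of the 101 other sorting genes 1 was called with the Y-linked score beside the title code and 1 in B1 libraries only. With the Y-linked score alone 0 were called, with DESeq2 5, and without 1 library 1 to 4. Over all genes the shares called in these settings were, in the same order, 2.24%, 2.91%, 0.658%, 11.8% and 2.84% to 10.2%. Snx31 differed by 3.21 with the Y-linked score alone (not called) and by 2.65 to 4.94 without 1 library, and its ratio to Snx17 by 3.02 to 3.70. Its differences within genotype pairs ran from 2.97 to 5.21 (flox/ko), from 2.30 to 5.03 (flox/flox) and, between the pairs, from -0.015 to 2.71 (below 0 without control 09). Members that differed by title code numbered 8 with the Y-linked score (12.5%, against 22% of all genes) and 6 to 15 without 1 library: 6 without BrapcKO 21 (9.38% against 16.2%), 7 without control 08 (10.9% against 17.3%) and 15 without control 24 (23.4% against 27.9%). The Snx31 count ratio without BrapcKO 21 was also added after seeing the data. The filter of at least 1 CPM in 5 libraries removed Snx31.

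Some uncalled differences near 0 changed sign. With group as the only term these were Vps26a at -0.0013, Vps51 at 0.011 and Vps13d at 0.097, and with the score beside the title code they were -0.14, 0.14 and 0.016. With the Y-linked score alone they were -0.12, 0.25 and 0.16, and Vps45 was -0.0037. Vps13d was 0.00087 with DESeq2, 0.00098 with RLE factors and 0.027 with library totals, where Snx19 was 0.0090. In B1 libraries only, Snx27 was -0.0047, Vps26a -0.063, Snx19 0.00049, Vps37b 0.013, Vps45 -0.0041, Snx25 -0.028, Vps54 -0.023 and Vps13d 0.066. Without 1 library the ranges were -0.010 to 0.046 for Snx27, -0.069 to 0.055 for Vps26a, -0.23 to 0.0082 for Vps37b, -0.0098 to 0.092 for Vps45, -0.033 to 0.059 for Snx25, -0.029 to 0.15 for Vps54 and -0.077 to 0.061 for Vps13d. The cause was not tested. No paired analysis was possible because the groups share no replicate number. Depth limits Snx31, Snx20, Vps25 and Vps51, each under 2 CPM on average. Exons of Vps25 and Vps51 also overlap those of same-strand genes, and the effect of this on their counts was not tested.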

Other observations

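The genes next to Snx31 on chromosome 15 differed much less than it did. Ankrd46, 7.2 kb away on the same strand, rose from 171 ± 6.60 to 208 ± 20.2 CPM (SD, n = 5 each; log2 difference 0.32, edgeR adjusted p 0.0327), with all 5 BrapcKO libraries above all 5 controls. Its call was lost with a Y-linked score beside the title code (adjusted p 0.255). Pabpc1, 40.1 kb away on the other side, differed by 0.13 (adjusted p 0.391). Of the members nearest to Brap on chromosome 5 none was called: Vps29, Vps33a and Vps37b, at 0.67, 1.84 and 2.32 Mb from Brap, differed by -0.10, 0.03 and -0.13 (adjusted p 0.435, 0.883 and 0.595). These genes were chosen by position after the values of the members were seen.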
